A study of Homo sapiens with 2 samples.

Results

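The clustered protocadherin genes are 53 of the 20175 protein-coding genes of the annotation, and they lie on chromosome 5 in the alpha, beta and gamma clusters, which hold 15, 16 and 22 genes. They were taken as every protein-coding gene of chromosome 5 whose symbol begins with PCDHA, PCDHB or PCDHG, with the C-type genes PCDHAC1, PCDHAC2, PCDHGC3, PCDHGC4 and PCDHGC5 among them. All 53 genes are on the + strand. For each gene, CpG cytosines were used from 1500 bp upstream to 2500 bp downstream of the first exon start, when the site had at least 5 reads in both libraries. DNA methylation was measured by bisulfite capture sequencing in 1 library of SKNO-1, an established acute myeloid leukemia cell line that carries the RUNX1-RUNX1T1 (AML1-ETO) fusion, and 1 library of SKNO1-siAE. SKNO1-siAE cells are SKNO-1 cells that received the lentiviral vector pRRLcPPT.hPGK with siAGF1 oligonucleotides, which target the junction of the fusion mRNA so that its transcript is silenced. Both lines were kept in RPMI medium with fetal calf serum and antibiotics, and whether SKNO1-siAE is a single clone is not given in the sources used here. The comparison asks where methylation differs between the line with the fusion transcript and the line in which it was silenced. There were no replicates, so every test below compares 2 libraries and not the conditions.

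Clustered protocadherins are cell adhesion proteins of the cadherin family that neurons use to tell their own branches from those of other neurons. In the alpha and gamma clusters, each variable first exon has its own promoter and is spliced to a shared set of constant exons at the end of the cluster, whereas each beta gene is a complete gene without constant exons. A neuron uses a few of the alternate promoters, chosen at random, and the C-type genes are used more evenly across cells. The promoters share a conserved sequence element with a CGCT core that is bound by CTCF, which together with cohesin brings a promoter to a distal enhancer, and methylation of the promoter CpGs is known to go with silent promoters.

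The elements below are shown because the CpG of their core could be read in both libraries and took every pattern described later. Each is 36 bases on the + strand of GRCh37 (hg19), and the capitals mark the CGCT core. PCDHGC3, PCDHGB2 and PCDHB3 had less methylated promoters in SKNO-1, PCDHGA10 and PCDHGB3 had more methylated ones, PCDHB10 and PCDHA1 were unmethylated or nearly so at the core in both libraries, PCDHB12 and PCDHGA5 were methylated in both, and PCDHA2 and PCDHA8 show the form of the alpha cluster.
PCDHGC3, chr5:140855443-140855478: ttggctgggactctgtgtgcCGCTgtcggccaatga
PCDHGB2, chr5:140739484-140739519: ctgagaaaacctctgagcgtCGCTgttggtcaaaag
PCDHGA10, chr5:140792494-140792529: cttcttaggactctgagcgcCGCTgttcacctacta
PCDHGB3, chr5:140749725-140749760: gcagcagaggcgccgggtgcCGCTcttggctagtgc
PCDHGA5, chr5:140743670-140743705: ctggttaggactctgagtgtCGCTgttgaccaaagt
PCDHB3, chr5:140479973-140480008: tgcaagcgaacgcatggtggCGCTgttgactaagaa
PCDHB10, chr5:140571868-140571903: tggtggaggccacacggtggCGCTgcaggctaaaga
PCDHB12, chr5:140588211-140588246: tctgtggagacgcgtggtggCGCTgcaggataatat
PCDHA1, chr5:140165667-140165702: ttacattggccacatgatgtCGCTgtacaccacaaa
PCDHA2, chr5:140174362-140174397: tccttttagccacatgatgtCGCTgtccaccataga
PCDHA8, chr5:140220711-140220746: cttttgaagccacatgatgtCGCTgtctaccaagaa

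The 300 bases upstream of PCDHGC3 and PCDHGA10 are shown in full because these promoters had the largest differences in each direction. The capitals mark the CpGs, and the PCDHGC3 stretch holds 14 of them while the PCDHGA10 stretch holds 4.
PCDHGC3, chr5:140855214-140855513: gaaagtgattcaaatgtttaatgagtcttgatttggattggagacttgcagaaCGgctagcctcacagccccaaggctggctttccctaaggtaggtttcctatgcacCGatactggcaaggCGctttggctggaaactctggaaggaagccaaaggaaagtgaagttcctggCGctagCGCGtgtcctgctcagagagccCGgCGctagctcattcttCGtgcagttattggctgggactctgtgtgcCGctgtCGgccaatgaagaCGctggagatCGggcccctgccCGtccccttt
PCDHGA10, chr5:140792254-140792553: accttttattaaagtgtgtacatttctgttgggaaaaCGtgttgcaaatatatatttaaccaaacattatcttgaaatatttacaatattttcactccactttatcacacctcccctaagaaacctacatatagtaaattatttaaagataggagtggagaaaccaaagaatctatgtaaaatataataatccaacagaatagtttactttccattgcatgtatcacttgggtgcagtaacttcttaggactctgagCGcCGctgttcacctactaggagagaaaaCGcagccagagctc

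Searched on both strands of the 300 bases before each start, CGCT was found in 49 of the 53 genes (92.5%), against 73.8% of all protein-coding genes. The longer string CGCTGT, which contains CGCT, was found in 26 genes (49.1%) against 11.5% of all, and GGTGGCGCT, which also contains CGCT, in 13 genes (24.5%) against 0.625% of all. All 13 of these are among the 16 beta genes, whereas 17 of the 22 gamma genes and 8 of the 15 alpha genes hold CGCTGT. The longer strings were chosen after the sequences were seen. A median of 6 CpGs lay in the 300 bases upstream of a clustered protocadherin, against 15 for all protein-coding genes, while the whole windows held a median of 149 CpGs against 127. Of the sites measured in the windows, 85.3% lay in the first exon.

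The libraries were of similar depth. Read counts summed to 83620068 over 4713346 CpG cytosines in SKNO-1 and to 82164216 over 4694016 in SKNO1-siAE, and 3168726 sites had at least 5 reads in both. Totals of reads here and below are such sums over cytosines, so a read is counted at each CpG that it covers. The windows of the 53 genes held 9130 of these shared sites, between 32 and 329 per gene, with 252025 reads in SKNO-1 and 267576 in SKNO1-siAE. The median depth of these sites was 22 and 23 reads, against 16 and 15 over all shared sites. The share of all reads that fell in the windows was 0.925 times as large in SKNO-1 as in SKNO1-siAE, while for chromosome 5 as a whole it was 1.24 times as large, and the part of depth or copy number in the differences was not tested. Of the CpG cytosines in the windows, 58.5% had 5 reads in both libraries. The level of a site is its methylated reads over all its reads, from 0 to 1, the level of a gene is the mean over its sites, and differences are SKNO-1 minus SKNO1-siAE. Distances are from the first exon start and are negative upstream. Intervals are 95% Wilson intervals of pooled reads and cover counting error only. They take all counts as independent although a read can be counted at several sites, so they can be too narrow even for that error.

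The clustered protocadherins were heavily methylated in both libraries. Their mean window level was 0.853 in SKNO-1 and 0.904 in SKNO1-siAE, against 0.363 and 0.425 over all protein-coding genes. Of the 53 genes, 50 (94.3%) were at 0.7 or higher in both libraries, compared with 21.8% of all protein-coding genes, and 0 were under 0.2 in both, compared with 39.2% of all. The 3 exceptions were PCDHB14 with 0.695 in SKNO-1, PCDHGC3 with 0.610 in SKNO-1 and PCDHGA10 with 0.658 in SKNO1-siAE. The difference was below 0 in 42 genes (79.2%) and had a median of -0.0605. Over all protein-coding genes 63.1% were below 0 with a median of -0.0129, and over the 4799 of them with a mean level of at least 0.7 in the libraries together 71.9% were below 0 with a median of -0.0438. By the mean, the difference of the 53 genes was the smallest in size, at -0.0512 against -0.0620 over all protein-coding genes and -0.0582 over those 4799.

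**Figure D1:**
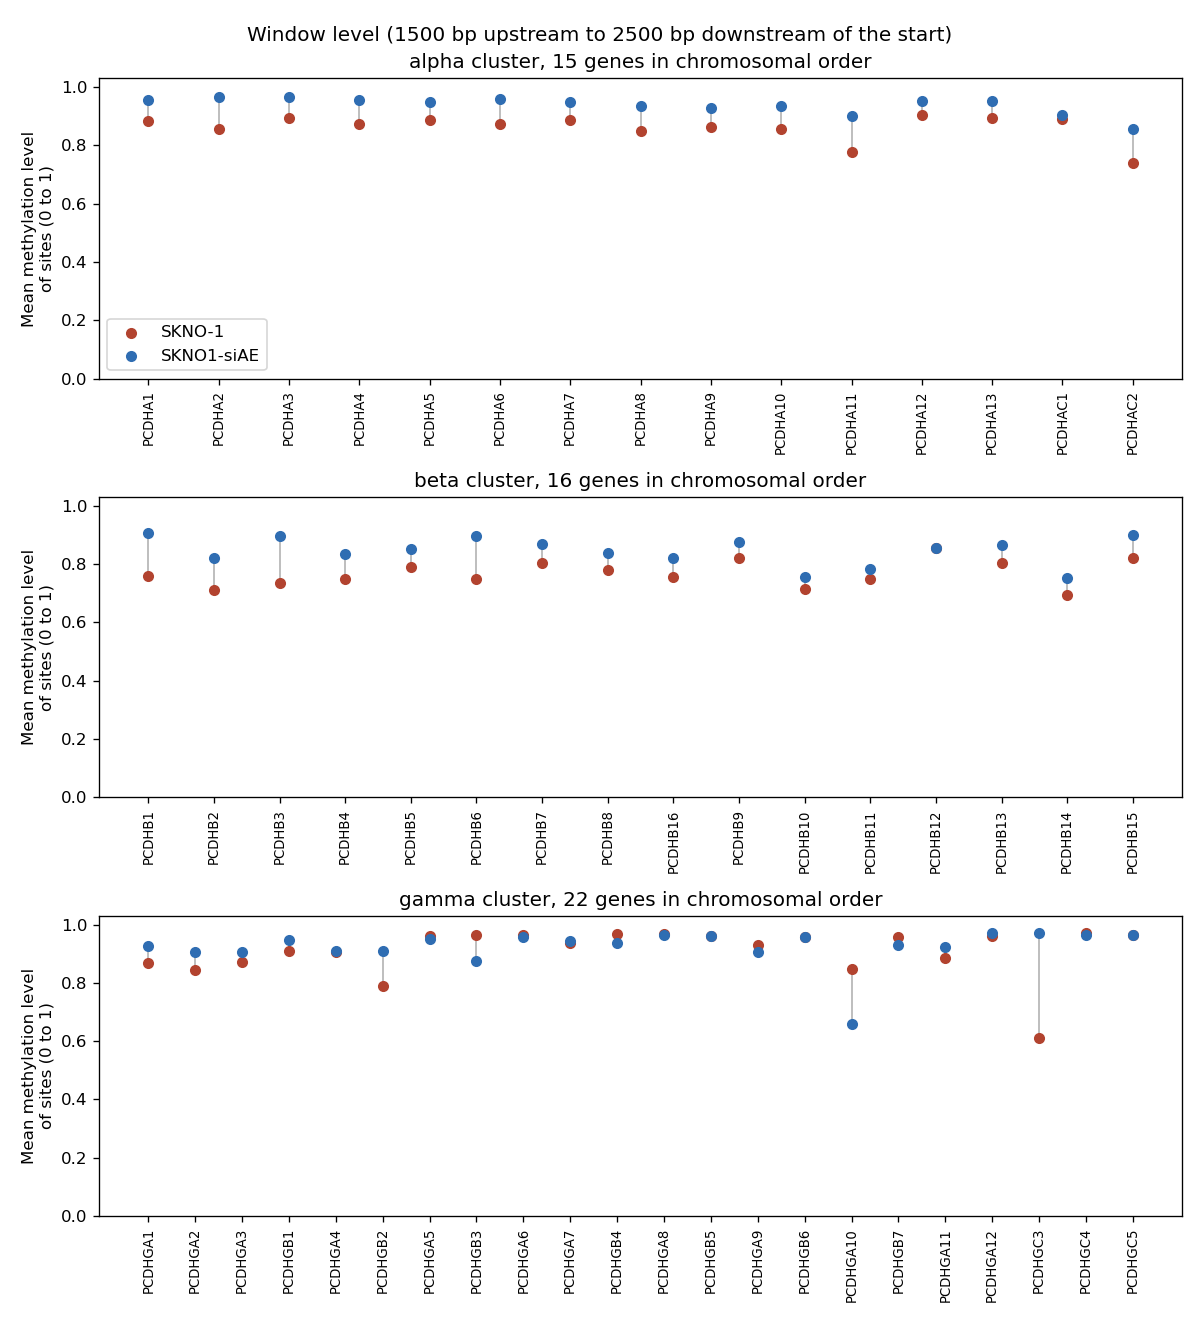
Mean methylation level of the CpG sites in each gene window (vertical axis, 0 to 1) in SKNO-1 (red) and SKNO1-siAE (blue), with the genes of each cluster in chromosomal order and a grey line joining the values of a gene. SKNO-1 lies below SKNO1-siAE in 15 of 15 alpha genes, 15 of 16 beta genes and 12 of 22 gamma genes, and PCDHGC3 (0.610 against 0.971) and PCDHGA10 (0.849 against 0.658) stand apart in the gamma cluster.

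A gene window was counted as changed when its level differed by at least 0.2 over at least 5 sites, a rule of size with no test. By this rule 1 of the 53 windows was lower in SKNO-1, PCDHGC3, and 0 were higher. Of all 17891 protein-coding windows with at least 5 sites, 14.3% were lower and 2.91% were higher, and of the 4799 highly methylated ones 11% were lower. PCDHGA10, with a difference of 0.191, was the nearest to the limit on the higher side. At single sites, tested with a 2-sided Fisher's exact test with Benjamini-Hochberg adjustment across the 3168726 shared sites, and counted at a difference of at least 0.2, 920 of the 9130 sites (10.1%) were lower in SKNO-1 and 304 (3.33%) were higher. Both shares were below those over all shared sites, which were 11.7% lower and 4.4% higher.

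In the alpha cluster, every gene was lower in SKNO-1. The 15 genes averaged 0.862 in SKNO-1 against 0.938 in SKNO1-siAE, a mean difference of -0.0754 (SD over the 15 genes 0.0274), and the genes ranged from -0.122 to -0.0152. The mean difference over all protein-coding genes was -0.0620. Of the 3422 alpha sites, 374 were lower and 41 were higher. The difference changed little along the cluster, with means of -0.0797 from PCDHA1 to PCDHA5, -0.0743 from PCDHA6 to PCDHA10 and -0.0723 from PCDHA11 to PCDHAC2. The largest differences were in PCDHA11 (0.777 against 0.900 over 112 sites), PCDHAC2 (0.739 against 0.855 over 78 sites) and PCDHA2 (0.855 against 0.968 over 267 sites). The place of PCDHA11 depends on the start used, since around its canonical start the window was at 0.872 against 0.954 over 247 sites, a difference of -0.0819. The smallest were in PCDHAC1 (0.890 against 0.905 over 116 sites), PCDHA12 (0.904 against 0.951) and PCDHA13 (0.893 against 0.954). The C-type genes of the cluster, PCDHAC1 and PCDHAC2, thus lay near opposite ends of its range. PCDHAC2 also had the lowest alpha level in each library.

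In the beta cluster, whose genes are complete in themselves, levels were lower than in the other clusters and the difference from SKNO1-siAE was as large as in alpha. The mean over the 16 genes was 0.768 in SKNO-1 and 0.846 in SKNO1-siAE, a mean difference of -0.0776 (SD over the 16 genes 0.0446), and 296 of the 1968 sites were lower while 84 were higher. The 5 genes from PCDHB1 to PCDHB5 differed by -0.114 on average, the next 5 up to PCDHB9 by -0.0784, and the 5 from PCDHB10 to PCDHB14 by -0.0396, while PCDHB15, the last gene, differed by -0.0799. The largest differences were in PCDHB3 (0.735 against 0.898 over 149 sites), PCDHB1 (0.759 against 0.908 over 76 sites) and PCDHB6 (0.749 against 0.897 over 173 sites). PCDHB12 was the only beta gene without a lower level in SKNO-1, with 0.855 against 0.854, and PCDHB11 (0.748 against 0.783) and PCDHB10 (0.715 against 0.757) followed it. The beta sequences resemble each other closely, and 14.8% of the beta sites lay in a converted 100 bp context that occurs again within the clusters, compared with 5.38% of the alpha and 4.52% of the gamma sites.

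In the gamma cluster most genes were close to fully methylated in both libraries, and a few single genes differed strongly in either direction. The mean over the 22 genes was 0.909 in SKNO-1 and 0.924 in SKNO1-siAE, a mean difference of -0.0155 (SD over the 22 genes 0.0972), with a median of -0.00124. That mean rests on PCDHGC3, since without this gene it was 0.000995. Of the 3740 gamma sites, 250 were lower and 179 were higher. PCDHGC3 was the lowest in SKNO-1 (0.610 against 0.971 over 203 sites), followed by PCDHGB2 (0.789 against 0.911 over 189 sites) and PCDHGA2 (0.844 against 0.905 over 209 sites). On the other side were PCDHGA10 (0.849 against 0.658 over 211 sites), PCDHGB3 (0.964 against 0.875 over 155 sites) and PCDHGB4 (0.969 against 0.937 over 211 sites). The remaining C-type genes of the cluster hardly differed, with 0.972 against 0.963 over 81 sites in PCDHGC4 and 0.965 against 0.963 over 32 sites in PCDHGC5. The first 5 genes, from PCDHGA1 to PCDHGA4, were all lower in SKNO-1, with differences from -0.0611 to -0.00310, and the 5 genes from PCDHGB4 to PCDHGB6 differed by between -0.00201 and 0.0318.

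In the beta and gamma clusters, sites that differed made up a larger share near the first exon start than farther from it, and in alpha the shares were closer. Within 500 bp of a start, 437 of 2740 sites (15.9%) were lower and 173 (6.31%) were higher, whereas beyond it 483 of 6390 (7.56%) were lower and 131 (2.05%) were higher. In the windows of all protein-coding genes the shares were 9.12% lower and 3.27% higher near a start, and 12.1% and 4.91% beyond. In the gamma cluster, 13.5% were lower and 9.58% higher near the start against 3.28% and 2.40% beyond. The shares lower near the start and beyond were 13.5% and 10.0% in alpha, and 24.3% and 10.8% in beta. In the 500 bp before the start, sites averaged 0.620 in SKNO-1 against 0.787 in SKNO1-siAE for alpha, 0.497 against 0.624 for beta, and 0.80 against 0.823 for gamma. In the 500 bp after the start, the gamma sites were at 0.819 against 0.882. From 1500 to 1999 bp into the genes, which lies in the first exon except in 5 beta genes, the levels were 0.934 and 0.969 for alpha, 0.912 and 0.948 for beta, and 0.960 and 0.965 for gamma. Farther upstream sites were few, but in alpha and beta the largest differences of any bin lay there. From -1500 to -1001 bp, the 33 alpha sites were at 0.461 against 0.788, with 51.5% of them lower, and the 9 beta sites at 0.515 against 0.627. From -1000 to -501 bp, the 37 alpha sites were at 0.521 against 0.678, with 35.1% lower, and the 12 beta sites at 0.463 against 0.671.

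**Figure D2:**
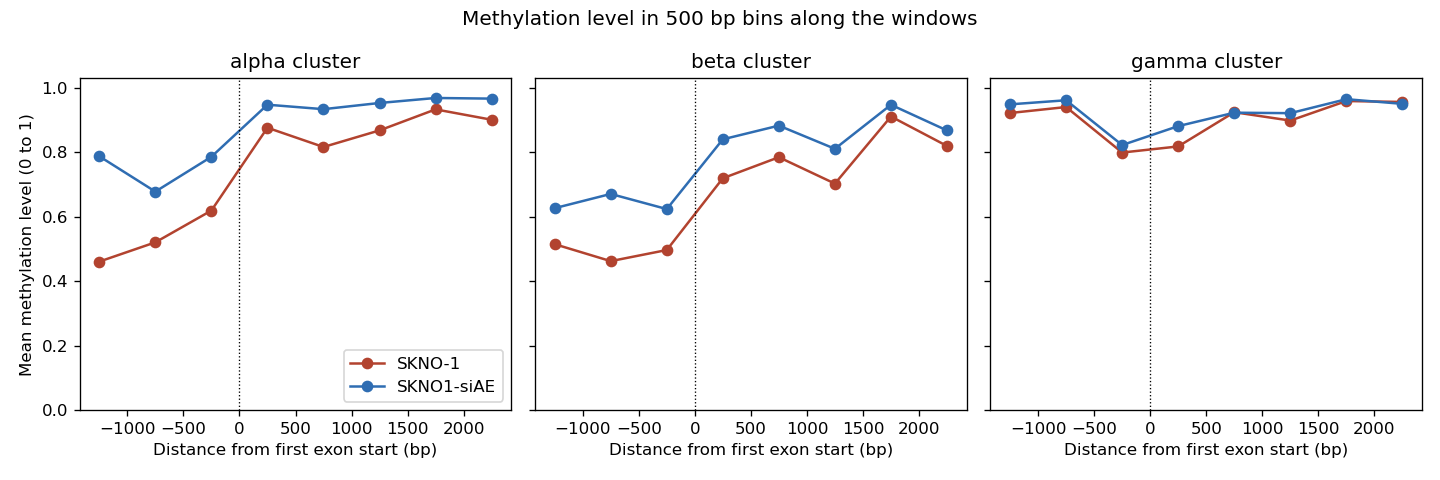
Mean methylation level (vertical axis, 0 to 1) of the sites in 500 bp bins against distance from the first exon start (horizontal axis, bp), by cluster, in SKNO-1 (red) and SKNO1-siAE (blue). In alpha and beta both lines are higher after the start than before it, with SKNO-1 below throughout, whereas in gamma both lines dip around the start, to 0.80 and 0.823 in the bin before it and 0.819 and 0.882 in the bin after it, which has the widest gap of the cluster.

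For the 1000 bp around the start, 51 genes had at least 5 sites. Of these promoters, 26 were at 0.8 or higher in SKNO-1, 37 in SKNO1-siAE and 25 in both. The share of all protein-coding promoters at that level was not computed. The mean level of all those with at least 5 sites was 0.298 in SKNO-1 and 0.361 in SKNO1-siAE, against 0.741 and 0.824 for these 51. By the same limit of 0.2, 4 were lower in SKNO-1, PCDHGC3, PCDHGB2, PCDHB3 and PCDHA9, and 2 were higher, PCDHGA10 and PCDHGB3. Of the 16067 protein-coding promoters measured in the same way, 14.2% were lower and 3.51% were higher. PCDHA9 rests on 5 sites, because its gene record begins 610 bp before its Ensembl canonical transcript. Around the canonical start its 60 sites were at 0.865 and 0.917, so that with canonical starts 3 promoters were lower and 2 higher among 52. PCDHA11 and PCDHGA8 also begin far from their canonical transcripts, by 774 and 2476 bp, and around the canonical starts their promoters were at 0.712 against 0.874 over 56 sites and at 0.966 against 0.940 over 73 sites. Of the 161 sites in the PCDHGA8 window, 150 lie also in that of PCDHGB4.

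**Figure D3:**
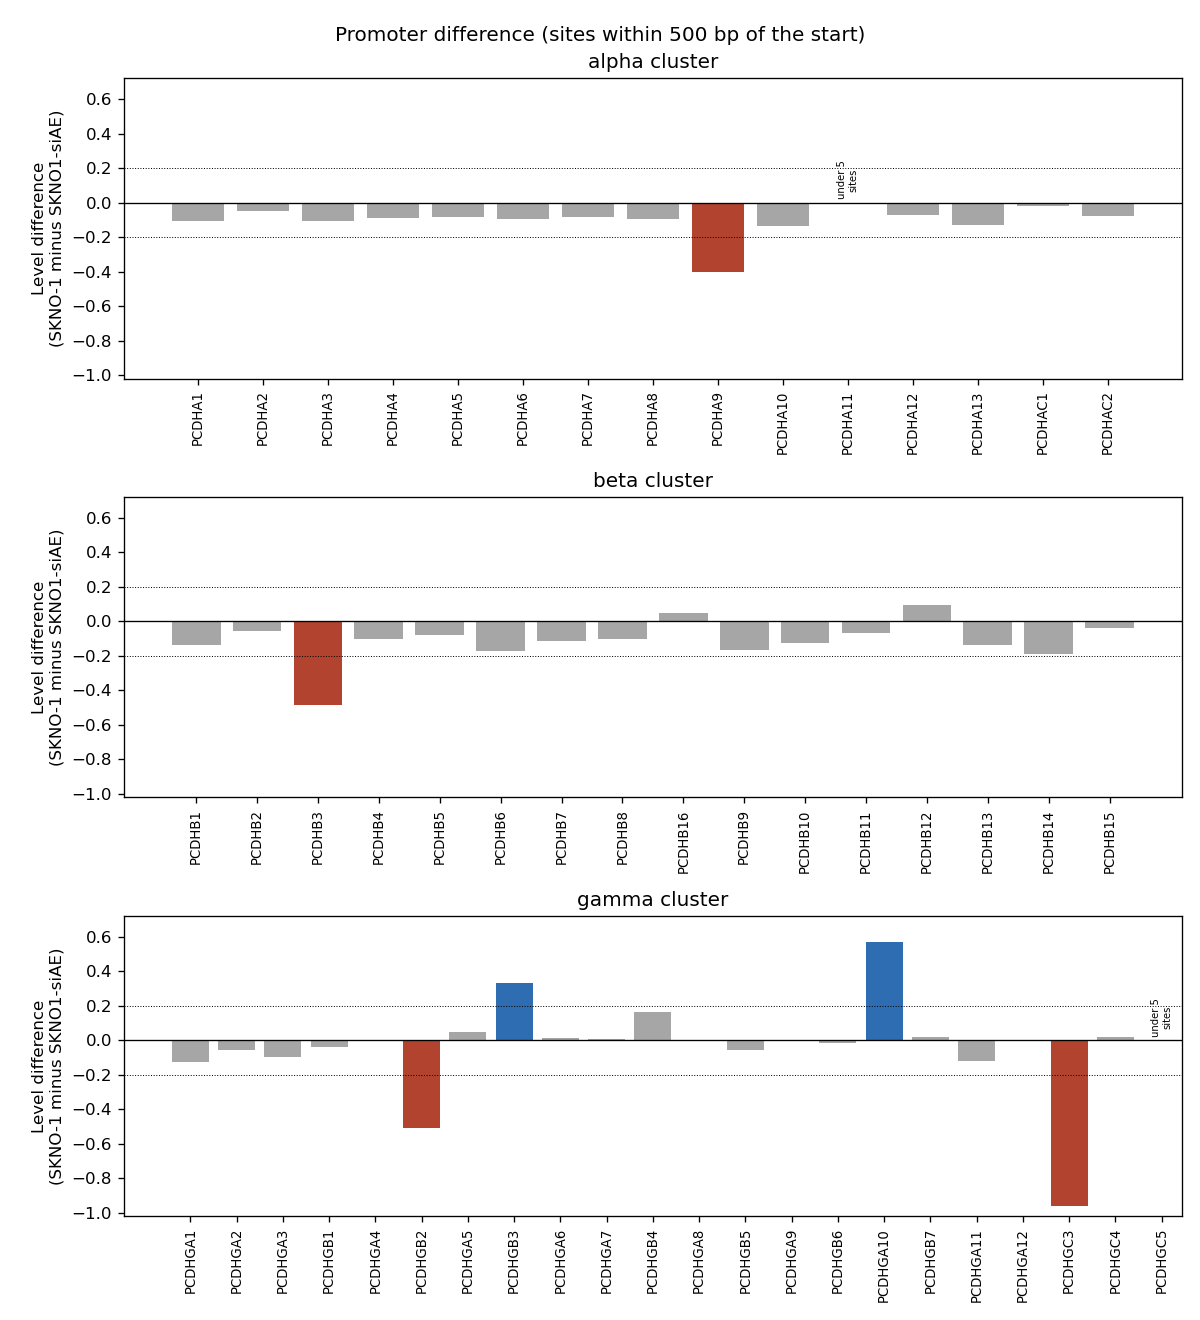
Difference in mean methylation level (vertical axis, SKNO-1 minus SKNO1-siAE) of the sites within 500 bp of the first exon start for each gene in chromosomal order, with dotted lines at a difference of 0.2 in either direction. Red bars are the 4 promoters lower in SKNO-1, blue bars are the 2 higher ones, grey bars the other 45, and PCDHA11 and PCDHGC5 had under 5 sites.

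PCDHGC3, a C-type gene with a promoter rich in CpGs for this family, was unmethylated at its promoter in SKNO-1 and methylated in SKNO1-siAE. Over its 69 promoter sites, SKNO-1 had 10 methylated reads of 1628 (0.00614, interval 0.00334 to 0.0113) and SKNO1-siAE had 952 of 994 (0.958, interval 0.943 to 0.969), with a mean difference of -0.962. Of all 16067 promoters measured, 42 had a difference at or below this one. All but 1 of the 69 sites were lower by the site test. By strand, the difference was -0.940 over 36 sites (+) and -0.985 over 33 sites (-). In the 250 bp before the start 1 of 354 reads was methylated in SKNO-1 against 256 of 279, and in the second 250 bp after it 0 of 439 against 176 of 185. In the 250 bp from 750 bp on, still within the first exon, the levels were 0.878 and 0.984 over 33 sites. The longest stretch of sites under 0.2 in SKNO-1 ran from 9 to 529 bp after the start, chr5:140855523-140856043, with 1 of 1209 reads methylated over 49 sites against 628 of 646 in SKNO1-siAE. Of the gamma sites lower in SKNO-1, the one with the smallest p lay in it at position 140855547 (+ strand), with 0 of 46 reads methylated against 31 of 31 (adjusted p = 1.33e-19, Fisher's exact test). None of the 203 sites of this window lay in a 100 bp context that recurs in the clusters.

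PCDHGA10, an alternate gene that lies 4 genes before PCDHGC3, showed the opposite. Over its 57 promoter sites, SKNO-1 had 853 methylated reads of 1600 (0.533, interval 0.509 to 0.557) and SKNO1-siAE had 21 of 1900 (0.0111, interval 0.00724 to 0.0168), with a mean difference of 0.567. Of all promoters measured, 146 had a difference at or above this one, and 54 of its 57 sites were higher by the site test. SKNO-1 was thus partly methylated here, and not fully methylated as SKNO1-siAE was at PCDHGC3. By strand, the difference between the libraries was 0.670 (+) and 0.461 (-). The strands differed within SKNO-1, at 0.681 (+) and 0.478 (-), while SKNO1-siAE was at 0.0113 and 0.0165, and the cause was not tested. The unmethylated stretch of SKNO1-siAE ran from -43 to 415 bp, chr5:140792511-140792969, with 4 of 1371 reads methylated over 39 sites against 664 of 1241 in SKNO-1. In the 250 bp from 2000 bp on, within the first exon, the levels were nearly equal, with 0.978 and 0.983 over 44 sites.

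PCDHGB2 and PCDHGB3, alternate genes separated by PCDHGA5, differed in opposite directions. In the PCDHGB2 promoter, SKNO-1 had 433 methylated reads of 1304 (0.332, interval 0.307 to 0.358) and SKNO1-siAE had 1702 of 2078 (0.819, interval 0.802 to 0.835). Its level in SKNO-1 was 0.0402 in the 250 bp before the start, 0.0236 in the 250 bp after it and 0.336 in the next 250 bp, against 0.363, 0.645 and 0.932 in SKNO1-siAE, so that SKNO1-siAE was itself only partly methylated at the start. In the PCDHGB3 promoter, SKNO-1 had 1064 of 1108 (0.960, interval 0.947 to 0.970) and SKNO1-siAE had 597 of 1091 (0.547, interval 0.518 to 0.577). Its clearest site, at -12 bp and position 140749797 (+ strand), had 54 methylated reads of 57 in SKNO-1 against 0 of 60 in SKNO1-siAE (adjusted p = 4.31e-27, Fisher's exact test). PCDHGA5, between them, was methylated in both, with a promoter level of 0.974 in SKNO-1 and 0.929 in SKNO1-siAE.

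**Figure D4:**
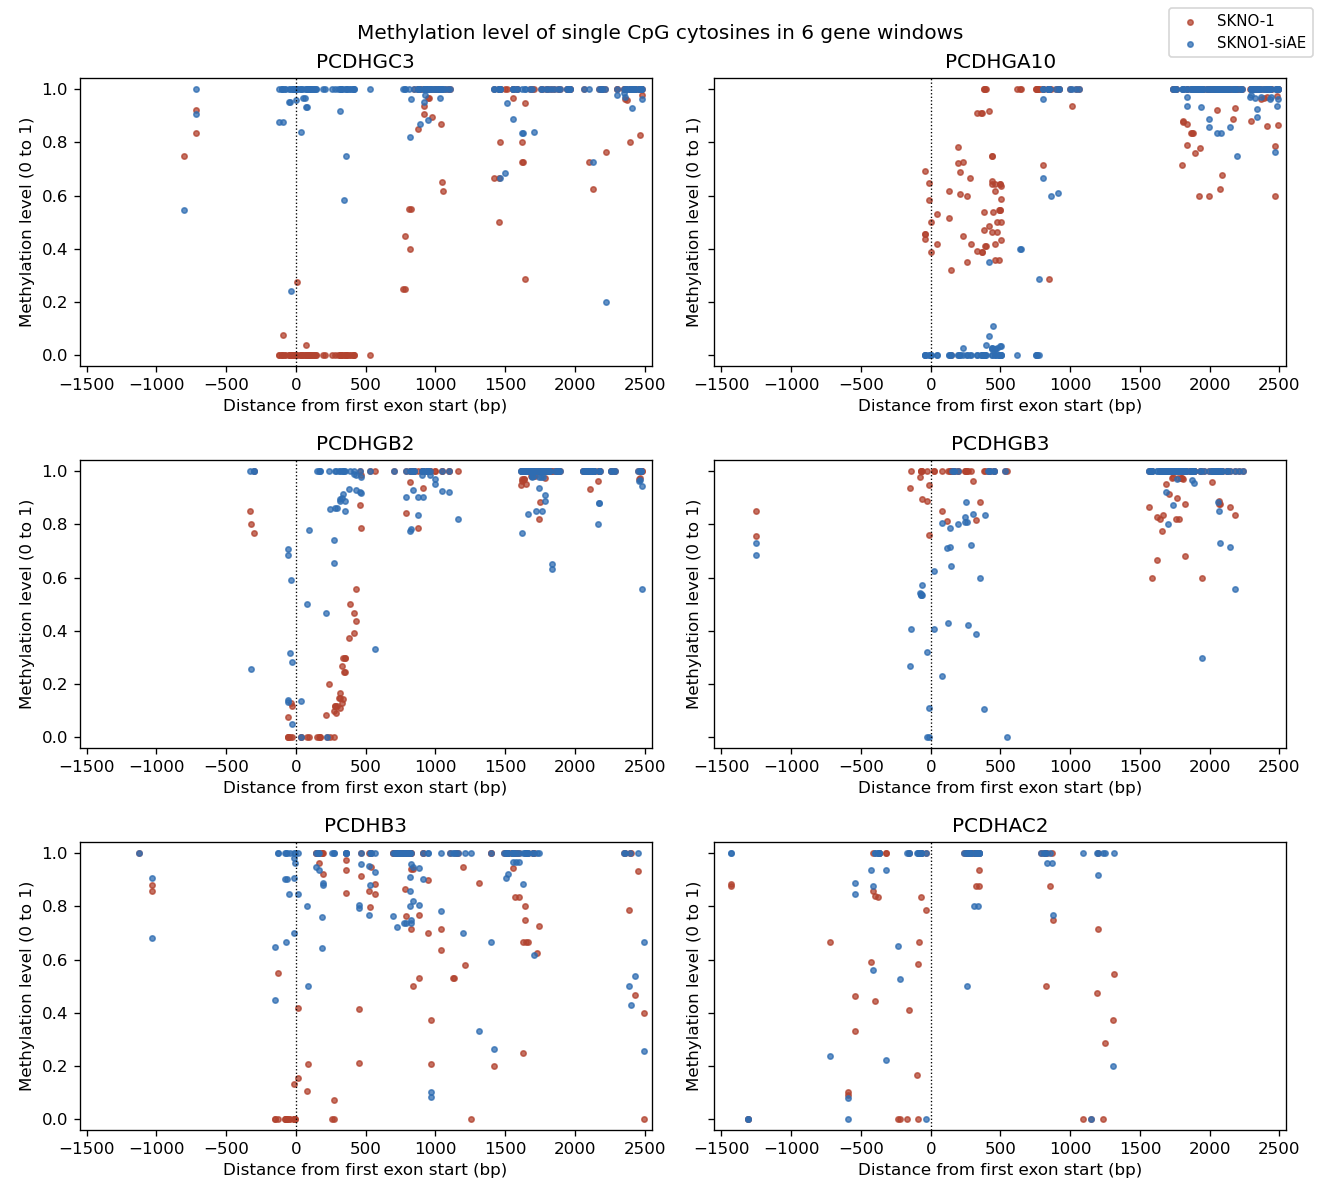
Methylation level of single CpG cytosines (vertical axis, 0 to 1) against distance from the first exon start (horizontal axis, bp) in the windows of 6 genes, in SKNO-1 (red) and SKNO1-siAE (blue). At PCDHGC3 most SKNO-1 sites lie at or near 0 from just before the start to 529 bp after it while most SKNO1-siAE sites lie near 1, and at PCDHGA10 the SKNO1-siAE sites lie near 0 from -43 to 415 bp while SKNO-1 is intermediate.

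In the beta cluster the difference of PCDHB3 lay before the start and again inside the gene. Over 43 promoter sites, SKNO-1 had 827 methylated reads of 1747 (0.473, interval 0.450 to 0.497) and SKNO1-siAE had 1400 of 1566 (0.894, interval 0.878 to 0.908). In a stretch of 120 bp that ended at -6 bp, chr5:140479932-140480051, 7 of 595 reads were methylated over 15 sites in SKNO-1 against 641 of 704, and all 15 sites were lower by the site test. In the 250 bp from 250 bp on the levels were 0.579 and 0.960, with 5 of 11 sites lower, and in the next 250 bp they were 0.963 and 0.945. PCDHB2, its neighbour, was lower in SKNO-1 over the promoter (0.579 against 0.637) and the window (0.710 against 0.822), but a short stretch had the reverse, with 12 sites from -65 to -3 bp at 15 of 554 reads methylated in SKNO1-siAE and 270 of 541 in SKNO-1. Its site at position 140474127 (- strand) had 40 methylated reads of 67 in SKNO-1 against 0 of 71 in SKNO1-siAE (adjusted p = 8.64e-15, Fisher's exact test).

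Stretches of at least 5 consecutive sites under 0.2, a description chosen after the data were seen, were found in 10 genes in SKNO-1 and in 4 genes in SKNO1-siAE, with 2 genes, PCDHB5 and PCDHB10, in both lists. The other 41 genes had no such stretch in either library. Of the 9130 sites in the windows 5.15% were under 0.2 in SKNO-1 and 2.96% in SKNO1-siAE, against 33.4% and 27.9% of all shared sites. The share of all gene windows with such a stretch was not computed. PCDHB10 was unmethylated in both, with 0 of 338 reads in SKNO-1 and 0 of 586 in SKNO1-siAE over the 8 sites from -143 to -19 bp. The further genes in SKNO-1 were PCDHA8, PCDHA9, PCDHA10, PCDHB3, PCDHB4, PCDHB14, PCDHGB2 and PCDHGC3, and those in SKNO1-siAE were PCDHB2 and PCDHGA10. Sites were consecutive among those measured, so the 10 sites of PCDHA9 spread over 1624 bp and the 5 of PCDHA8 over 825 bp. The SKNO-1 stretches of PCDHB4 (724 to 813 bp) and PCDHB5 (1111 to 1255 bp) lay inside the first exon and away from the start. In PCDHB14, 38 of 603 reads were methylated in SKNO-1 over 15 sites from -396 to -16 bp, against 207 of 691 in SKNO1-siAE.

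In the alpha and beta clusters the single sites with the smallest p on the lower side lay farther upstream. At position 140219730 (+ strand), at -1042 bp from PCDHA8, SKNO-1 had 0 methylated reads of 55 and SKNO1-siAE had 40 of 41 (adjusted p = 1.85e-23, Fisher's exact test). At position 140528841 (+ strand), at -797 bp from PCDHB6, the counts were 0 of 162 and 104 of 108 (adjusted p = 2.44e-66, Fisher's exact test). The alpha site with the smallest p on the higher side was at -320 bp from PCDHAC2 and position 140345735 (+ strand), with 17 of 17 and 4 of 18 reads methylated (adjusted p = 3.23e-05, Fisher's exact test). These sites show which cytosines differed between the libraries, and neighbouring cytosines are not replicates of them.

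CGCT can occur more than once upstream of a gene, and the CpGs of all its copies on the + strand of the 300 bases before the starts were read together. They gave 128 cytosines in 48 genes, which averaged 0.646 in SKNO-1 against 0.720 in SKNO1-siAE. The levels were 0.607 and 0.742 in alpha, 0.479 and 0.612 in beta, and 0.771 and 0.777 in gamma. Restricted to copies within CGCTGT or GGTGGCGCT, 70 cytosines in 36 genes were at 0.554 against 0.656, with 0.413 against 0.599 in alpha, 0.390 against 0.540 in beta and 0.741 against 0.771 in gamma. In SKNO-1, 28 of the 128 cytosines were under 0.2 and 68 were over 0.8, compared with 21 and 73 in SKNO1-siAE. Among all shared sites, 33.4% were under 0.2 and 51.0% over 0.8 in SKNO-1, compared with 27.9% and 59.2% in SKNO1-siAE. At the core printed above for PCDHGC3, at -51 bp, 0 of 33 reads were methylated in SKNO-1 on the + strand and 0 of 13 on the - strand, against 20 of 21 and 14 of 14 in SKNO1-siAE. At that of PCDHB3, at -64 bp, the counts were 0 of 36 and 0 of 51 in SKNO-1 against 65 of 72 and 40 of 40. At that of PCDHGA10, at -40 bp, they were 5 of 11 and 38 of 55 in SKNO-1 against 0 of 31 and 0 of 77. PCDHB12 and PCDHB10 both hold GGTGGCGCT and lay at opposite levels in both libraries. The core of PCDHB12 had 84 of 85 and 90 of 90 reads methylated in SKNO-1 and 88 of 92 and 98 of 98 in SKNO1-siAE, while that of PCDHB10 had 0 of 51 and 0 of 27 in SKNO-1 and 0 of 84 and 0 of 66 in SKNO1-siAE. The same low level in both libraries was found at PCDHA1, with 6 of 82 and 0 of 74 reads in SKNO-1 and 0 of 59 and 2 of 81 in SKNO1-siAE, and at PCDHGA4, with 5 of 71 and 0 of 92 against 0 of 36 and 0 of 100. At the core of PCDHGB3 shown above, 42 of 47 and 38 of 38 reads were methylated in SKNO-1 against 31 of 54 and 16 of 30. A match to these letters describes the sequence and is no evidence that a factor was bound.

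The constant exons of the alpha and gamma clusters, to which every variable exon of the cluster is spliced, were covered by shared sites in their last exon, and the others had 0 shared sites. In the last alpha constant exon the level was 0.943 in SKNO-1 and 0.875 in SKNO1-siAE over 10 sites, and in the last gamma constant exon it was 0.931 and 0.978 over 50 sites.

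Among 9 non-clustered protocadherins, adhesion proteins encoded by solitary genes, 2 windows were lower in SKNO-1, PCDH7 (0.564 against 0.980) and PCDH18 (0.644 against 0.972), 1 was higher, PCDH9 (0.424 against 0.193), and the median difference was -0.0779. The 9 genes for CTCF, cohesin and chromatin regulators known to act on the clusters had a median difference of 0.000354, and 8 of them were under 0.2 in both libraries. The 1 that was lower was DNMT3B, a DNA methyltransferase gene, at 0.286 against 0.526. Within 500 bp of its start it was at 0.0406 against 0.206 over 42 sites, a difference of -0.165 that did not reach the limit of 0.2. Of 11 genes for cytoplasmic partners and proteases of the protocadherins, 3 were lower, CYFIP1 (0.0625 against 0.836), PTK2 (0.0440 against 0.708), which encodes focal adhesion kinase, and NCKAP1 (0.340 against 0.839), 0 were higher, and the median was -0.0117. These counts stand beside the 14.3% of all windows that were lower and the 2.91% that were higher.

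Many of the genes that flank the clusters or lie between or within them were less methylated than the clustered genes. Of 31 such protein-coding genes within 500 kb, 17 were under 0.2 in both libraries and 4 were over 0.7 in both, with a median difference of 0.00740. The shares of all protein-coding genes were 39.2% and 21.8%. Some of the 17 are not separate, since ANKHD1 and ANKHD1-EIF4EBP3 share their 113 sites and HARS1 and HARS2 their 110. By the limit of 0.2, which 14.3% of all windows passed as lower and 2.91% as higher, 3 were lower, SLC4A9 (0.656 against 0.961 over 6 sites), TAF7 (0.349 against 0.595) and CD14 (0.743 against 0.947), and 3 were higher, SLC35A4 and APBB3, which share their 98 sites (0.784 against 0.0337), and FCHSD1 (0.475 against 0.219). TAF7, which encodes a subunit of the general transcription factor TFIID, lies between the beta and gamma clusters. Other genes in or between the clusters had high levels in both libraries, with SLC25A2, which encodes a mitochondrial carrier, at 0.961 in SKNO-1 against 0.906 and AC005609.1 at 0.769 against 0.911. ENSG00000279983, at 0.698 against 0.755, shares 89 of its 90 sites with the window of PCDHB14 and gives no separate value.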

How the data were processed

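Genomic DNA of SKNO-1 and SKNO1-siAE was bisulfite-converted, captured with Roche NimbleGen SeqCap Epi probes and sequenced as paired reads. The authors removed adapters and low-quality ends, mapped the reads to hg19 and called methylation from unique sequences, and the submitters' processing notes name cutadapt 1.4.2 and BSMAP 2.73. The deposited values are raw counts of methylated and of unmethylated reads for each CpG cytosine and strand, without normalization, and no deposited site has under 5 reads. Removal of PCR duplicates beyond this is not given in the sources used here. Unconverted cytosine was checked in mitochondrial reads, of which 0.351% were methylated in SKNO-1 and 0.378% in SKNO1-siAE. The mean depth was 17.7 and 17.5 reads per site.

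Gene starts were those of GENCODE 44 on GRCh37 coordinates. Printed sequences were read from GRCh37. All 160707 shared sites of chromosome 5 fell on CpG cytosines of that assembly. PCDHA6 and PCDHA7 have no canonical transcript there and kept the gene start. Sites were tested with a 2-sided Fisher's exact test with Benjamini-Hochberg adjustment (threshold 0.05, difference of at least 0.2), and windows and promoters were described by mean site level with no test. A site in 2 windows was counted once in the site totals and calls of the clusters, and was placed by its nearer start in the shares near a start and beyond. The 500 bp bins and the shares in the first exon, in recurring contexts and with 5 reads in both libraries count it in each window. The site and window calls were tested on simulated data. Genes named with full values were the C-type genes and, in each cluster, the 3 with the largest and the 3 with the smallest difference among those with at least 20 sites, and named sites were those with the smallest p in each cluster and direction. Promoters, stretches under 0.2, 250 bp bins and elements outside this rule were picked with their values in view. The members and lists were chosen with earlier results of these data known. Alternatives were at least 10 reads, merged strands, canonical starts, 500 bp on either side of the start, pooled reads, own sites of each library, every site counted once, other limits and Bonferroni adjustment. The analysis used python 3.11.15, numpy 2.4.6, pandas 2.3.3, numba 0.67.0, scipy 1.17.1 and matplotlib 3.10.9.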

Additional observations from a re-analysis of the deposited data

How the results depend on the processing

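Of 57 alternative values for the cluster differences and the counts of changed genes and sites, 34 stayed close to the reported value, 22 moved further and 1 reversed. Close meant within the counting error of pooled reads for a difference. For a count it meant within a fixed ratio, so that 1023 sites lower counted as close to 920. Every alternative that gave a mean difference for a cluster kept it below 0, except leaving out PCDHGC3, which was computed for gamma only. With 500 bp on either side of the start, the mean differences were -0.110 in alpha, -0.115 in beta and -0.0400 in gamma, 4 genes were lower and 2 higher, and 437 sites were lower and 173 higher, since fewer and more central sites were used. With at least 10 reads 1 gene was higher. With strands merged 596 sites were lower and 192 higher, which is fewer because each CpG was then counted once. Pooled reads gave -0.0716 in beta, 2 genes lower and 1 higher, and own sites of each library gave -0.0120 in gamma and 1 gene higher. Counting every site once gave -0.0829 in beta and -0.0190 in gamma. At a limit of 0.1, 9 genes were lower and 1 higher, and Bonferroni adjustment left 186 sites lower and 40 higher. Alternatives added after the data were seen left out 653 sites in recurring 100 bp contexts, which gave -0.0846 in beta, and left out PCDHGC3, which gave 0.000995 in gamma, above 0. Where no construction is named, the cause was not tested. No paired analysis was possible because there was 1 library per cell line. The median depth was 22 and 23 reads per site, and with no minimum difference 1023 sites were lower and 337 higher.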

Other observations

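The clusters also hold relic genes, which are not protein-coding and were not among the 53. Measured in the same window, PCDHA14 was at 0.775 in SKNO-1 and 0.916 in SKNO1-siAE over 146 sites. The beta relics were at 0.724 and 0.807 (PCDHB17P), 0.784 and 0.853 (PCDHB18P) and 0.740 and 0.845 (PCDHB19P). The gamma relics were nearly fully methylated in both libraries, at 0.954 and 0.967 (PCDHGB8P) and 0.945 and 0.955 (PCDHGB9P). All 6 were lower in SKNO-1, and their levels lay within the range of the protein-coding genes of their own cluster in each library.

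Over 3791 CpGs with both strands read in both libraries, the + and - strands differed by 0.0989 on average in SKNO-1 and 0.0709 in SKNO1-siAE, irrespective of sign, while the signed difference was 0.000555 and -0.00329. The libraries differed, irrespective of sign, by 0.132 (+) and 0.127 (-). In beta the strands of a CpG differed by 0.146 in SKNO-1, the widest of the clusters, and in gamma by 0.0734.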
